A study of Oryza sativa with 36 samples.

Results

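The genes described here were strongly higher after brown planthopper (BPH) infestation in the susceptible rice variety TN1 and not in the resistant variety RH. They were chosen from the values themselves. A probe set was taken when its log2 intensity at 24 h was at least 2.3 higher under BPH infestation than under natural growth in TN1, a fold change of 4.92, with all 3 infested arrays above the 3 untreated ones, while the same difference in RH was under 0.5, a fold change of 1.41. Of the 57194 probe sets of the array, 337 met the TN1 minimum and none of these was removed by the demand on the arrays, since it held for all 337. RH differed by 0.5 or more in 270 of them. The other 67 included PBZ1, MS and CM-LOX1, which were left out by name, and 64 probe sets remained. The differences at 24 h under BPH infestation are therefore a description of the choice and carry no test.

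RNA came from shoots of 2-week-old seedlings, and 1 sample was a pot of 10 seedlings, with 3 pots and 3 arrays in each of 12 groups. The group names give the variety (R for RH, T for TN1), the hours after treatment (6 or 24) and the treatment. P stands for BPH infestation with about 100 nymphs per pot, or 10 per seedling. N stands for needle puncturing, 15 pricks per plant at the base of the seedling, and C for natural growth, in which plants were neither infested nor punctured. T24P, T24C, R24P and R24C are thus the groups the choice used, and the 8 remaining groups were not used by it. Whole shoots were ground, so that more RNA per cell and more cells that express a gene cannot be told apart.

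BPH is an insect that pierces rice tissue with its stylets and drinks phloem sap. Plants answer such feeding with salicylic acid, jasmonate and ethylene signalling, defence proteins and phytoalexins, and tissue that loses sap can also show genes of water shortage, such as dehydrins and other genes that answer to abscisic acid, and genes of sugar shortage. Needle puncturing stands beside infestation as a wound without an insect, though not a matched one. By the methods, punctured plants were pricked and afterwards grown as usual, and a netted cage kept nymphs on the infested pots. Whether the other pots were caged is not made clear, so caging and the length of wounding may also differ.

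The arrays stood on one scale, with medians between 35.8 and 39.8 intensity units, and arrays of one group correlated at 0.988 to 0.997. The lowest of these correlations was between T24P replicates 1 and 2. The leaf and shoot markers summed to 127500 to 132800 in T24P and 114800 to 125700 in T24C over 12 probe sets. The 20 probe sets of the seed storage list, which shoots should lack, summed to 2242 to 2652 in T24P and 1642 to 1719 in T24C, and to 2047 to 2159 in R24P and 1491 to 1746 in R24C, with 1 of them called higher in T24P/T24C. The part of these markers in the values below was not tested.

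The annotation of the array tied 41 of the 64 probe sets to 1 gene, 40 genes in all, and 23 to none. Only 11 carried a name beyond a locus number, and the others are called here by locus or probe set. In 60 of the 64, T24P was the highest of the 12 group means. The mean intensity over the 3 arrays was 40.6 to 3050 in T24P, with a median of 225, and 6.12 to 360 in T24C, with a median of 30.3. In T24C 38 of the 64 lay under the median of every array, and no detection calls were used here, so that a fold against such a level may be a lower bound. Over all probe sets, 3.53% were called higher in T24P/T24C. The median difference of the 64 was 2.65 in T24P/T24C, beside -0.03 for all probe sets, and it was 0.12 in R24P/R24C, 0.11 in T24N/T24C and -0.06 in R24N/R24C.

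**Figure D1:**
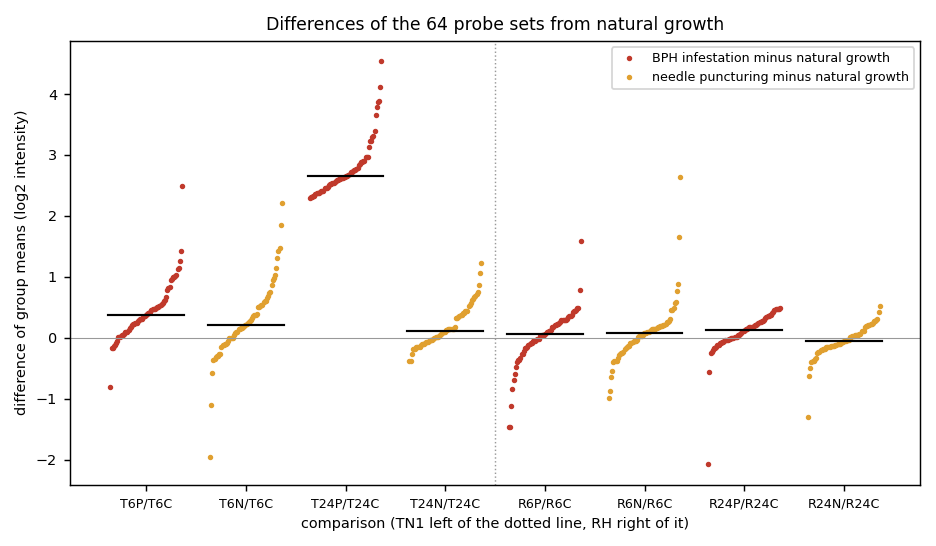
Each treatment minus its untreated group in mean log2 intensity, for each of the 64 probe sets (points, sorted within each column), with the median as a line. The T24P/T24C column starts at the minimum of 2.3 and R24P/R24C ends at 0.50 because the choice set these limits, and the other 6 columns have medians of 0.38 or less.

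The largest difference belonged to a probe set with no gene. Os.54685.1.S1_at read 497, 91.7 and 213 in the T24P arrays, against 7.79, 9.34 and 10.5 in the T24C arrays, a log2 difference of 4.54, and in RH its difference was 0.38. LOC4325624 followed with 299, 148 and 114 in T24P and 7.43, 11.1 and 11.9 in T24C, a difference of 4.11. Its RH arrays stood between these levels, at 20.4, 46.5 and 31.5 in R24P and 28.4, 25.8 and 28.5 in R24C. Of the next 8, LOC4326000, OsAffx.3667.1.S1_at, LOC4335067, LOC4331521, LOC4337246, LOC4337509, LOC4349585 and LOC4345287, the differences ran between 3.89 and 3.23. Probe sets of the same genes that were not members were smaller. Of 15 such probe sets, of 11 genes, none reached 2.3 in T24P/T24C and 3 passed 1. One that reached 2.3 would be a member unless RH differed by 0.5 or more, so this is largely set by the choice. LOC4323896 was a member by more than 1 probe set, at 3.23 and 2.83. LOC4335067 had 3.78 in its member probe set and 0.72, 1.16 and 1.35 in its 3 others, which had mean intensities of 171, 99.8 and 26.2 over the 36 arrays. In all, 12 probe sets were 3 or more higher and 52 lay between 2.3 and 3.

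Among the named members, 2 belong to the genes of water shortage and salt. Under its names salT, ML and MRL, the array lists a mannose-binding lectin of the jacalin type that accumulates in salt-stressed rice. Probe set Os.57456.1.S1_x_at for salT read 6468, 1358 and 1324 in T24P, against 269.6, 318 and 325 in T24C. All 3 infested arrays were above all others, and replicate 1 alone stood far above the other two. In RH it read 266, 290.4 and 354 in R24P and 311, 250.3 and 235 in R24C. The other probe set of salT lay just below the TN1 minimum, at 2.26, with a difference of 0.25 in RH. RAB16D, a dehydrin induced by abscisic acid, read 754, 145 and 369 in T24P and 60.2, 52.8 and 52.8 in T24C, a difference of 2.64, and its RH difference was -0.24.

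Several relatives of RAB16D were higher in TN1 too. The list of dehydrins, LEA proteins and genes that answer to abscisic acid held 15 other probe sets. GLUP4, 1 of them, is a Rab5 GTPase caught by its name. Of the 15, 9 rose in T24P/T24C and 3 in R24P/R24C, beside 3.53% and 0.956% of all probe sets called higher. The 9 are not all separate genes. They include the other probe set of salT, itself a member gene, and both probe sets of RAB21, which are also among the 3. Those not called in T24P/T24C included EME1 at -0.54 (limma adjusted p = 0.00458, under the minimum fold change) and EM at -0.02. Dhn1 had 0.18 and 0.24 in 2 dim probe sets and 1.60 in a brighter one. The neighbouring family members RAB21, RAB16B and RAB16C had TN1 differences of 6.41 (Os.12633.1.S1_s_at), 3.56 and 1.73, and RH differences of 1.44, 1.09 and 0.05. RAB21 rose in both varieties (limma adjusted p = 3.12e-15 in T24P/T24C and 0.00135 in R24P/R24C for that probe set). RAB16B rose in TN1 (adjusted p = 1.12e-08), and its RH difference missed the threshold (adjusted p = 0.0567). RAB16C was called in TN1 (adjusted p = 3.64e-07) and was near 0 in RH. Whether the members differ from these relatives was not tested.

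CM-LOX2, also named LOX9, encodes a lipoxygenase, an enzyme that oxidises polyunsaturated fatty acids at the head of the oxylipin pathways. It read 355, 241.4 and 266 in T24P, against 39.7, 52.8 and 45.9 in T24C, a difference of 2.63, and -0.04 in RH. The groups were far apart and the 3 infested arrays close together. Its 2 other probe sets, at mean intensities of 7.83 and 8.55 over the 36 arrays, differed by 0.68 and 0.09. No gene lies between it and CM-LOX1 on chromosome 8 in the RefSeq annotation, and CM-LOX1, one of the genes left out by name, had 2.79 in TN1 and -0.75 in RH. Of the 20 other probe sets of the list of lipoxygenases and jasmonate synthesis, 4 were called higher in T24P/T24C, beside 3.53% of all probe sets. CM-LOX1 was 1 of the 4, and its call follows from the choice. The others were AOS3 at 1.15, AOS, for allene oxide synthase, at 1.31 and OPR-1, for a 12-oxophytodienoate reductase, at 2.03. Another probe set labelled AOS had 0.63 and another labelled OPR-1 had 0.69, neither of them called. The median of the 20 was 0.35, with aoc at 0.17, LOX2 at 0.18 and OPR7 at -0.16.

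GER6 encodes a germin-like protein of the cell wall. It averaged 288 ± 28.8 in T24P and 43.3 ± 5.59 in T24C (SD, n = 3 each), a difference of 2.73, while R24P and R24C averaged 72.3 ± 8.93 and 61.9 ± 16.8 (SD, n = 3 each). The R24P arrays stood above those of T24C and overlapped those of R24C. In its family GER2 rose by 2.21 in T24P/T24C (limma adjusted p = 7.94e-08) and GER7 by 1.19 (adjusted p = 9.18e-08), and GER4 and GER5 had differences of -0.53 and -0.20. Of the 31 other probe sets on the list of peroxidases, oxidases and laccases, which holds the germins, 5 were called higher and 5 lower in T24P/T24C. Over all probe sets 3.53% were called higher and 3.13% lower.

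CPS2 encodes an ent-copalyl diphosphate synthase that feeds diterpenoid phytoalexins. Its levels were low, at 55.7, 86.3 and 93.0 in T24P against 11.5, 13.6 and 12.5 in T24C, a difference of 2.61, and 0.41 in RH. It was 1 of the few members whose lowest infested array was replicate 1. Of the 11 other probe sets on the list of terpene and phytoalexin synthesis, 3 were called higher and none lower in T24P/T24C. Over all probe sets 3.53% were called higher and 3.13% lower. The median of the 11 was 0.23. CPS4 rose by 1.502 and KS6 by 1.54 in T24P/T24C, against differences of -0.13 and 0.35 in RH, whereas the linalool synthase LIS rose in both varieties, by 1.76 in TN1 and 3.19 in RH. Those not called included CPS1 at -0.22, KS10 at 0.42, DTS2 at 0.23 and the 2 probe sets of the diterpene cyclase DTC1 at -0.59 (adjusted p = 0.000158, under the minimum fold change) and -0.33.

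ABCG37 and ABCG48, pumps of the pleiotropic drug resistance type in the plasma membrane, are the 2 ABC transporters among the 11 named members. ABCG37 read 347, 175 and 204 in T24P, against 34.6, 36.7 and 45.2 in T24C. ABCG48 read 205, 179.9 and 163 in T24P, against 38.4, 31.6 and 33.2 in T24C. Their differences were 2.58 and 2.41 in TN1 and -0.06 and 0.33 in RH. Relatives higher in both varieties lie outside the set by the choice itself, such as ABCG36 with 3.35 in TN1 and 2.34 in RH. Another, dim probe set of ABCG36 had 0.74 and 0.15. Of the 81 other probe sets on the list of nitrogen, phosphate, metal and ABC transporters, 11 were called higher and 3 lower in T24P/T24C. Over all probe sets 3.53% and 3.13% were, and the median of the 81 was 0.19. ABCG44 and ABCG45 had 2.40 and 1.79 in TN1, and ABCG50 and OsABCG5 had -0.17 and -0.53. HAK5, a high-affinity potassium transporter, read 120.5, 113 and 109 in T24P, against 18.1, 27.6 and 21.4 in T24C. Its RH difference of 0.4967 was the closest of all members to the limit of 0.5. A much brighter probe set of HAK5, with a mean intensity of 7245, differed by 0.41 in TN1, so that the 2 probe sets of this gene disagree.

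AMY3D, an alpha-amylase that is induced when sugar runs short, read 274, 29.2 and 34.6 in T24P, against 10.1, 13.4 and 12.5 in T24C. The difference of 2.45 rests mostly on replicate 1 and was 1.42 without it, and the other probe set of AMY3D differed by -0.17. EIL1, a transcription factor of ethylene signalling related to EIN3, read 778, 479 and 459 in T24P, against 104, 119 and 97.7 in T24C, a difference of 2.38. In RH it averaged 229 ± 35.2 in R24P and 242 ± 40.1 in R24C (SD, n = 3 each), and all 6 arrays lay above untreated and below infested TN1. CDKE-1, a cyclin-dependent kinase, read 519, 66.8 and 188 in T24P, against 40.2, 36.3 and 37.4 in T24C. Its difference was the smallest in the set, and a brighter probe set of it differed by 0.50.

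**Figure D2:**
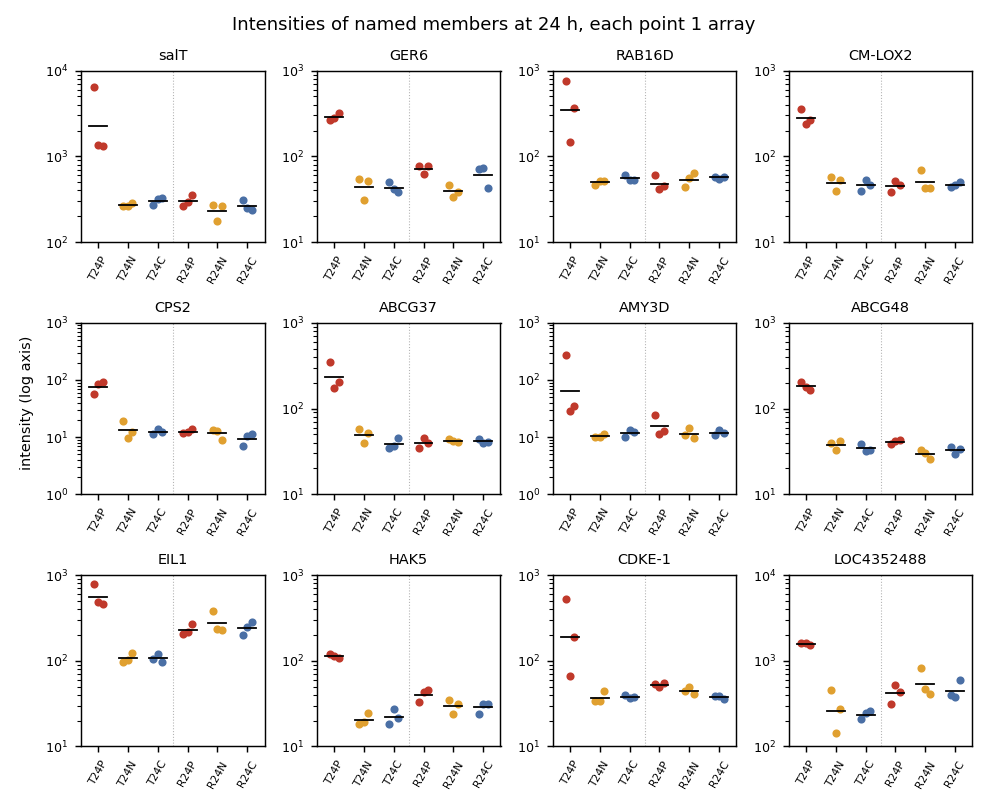
Intensity on a log axis of the 11 named members and of LOC4352488 in the 24 h groups, TN1 left and RH right of the dotted line, with 1 point per array and a bar at the geometric mean. The 3 T24P arrays lie above the 3 T24C arrays in every panel, close together in GER6, HAK5 and LOC4352488 and widely spread in salT, AMY3D and CDKE-1.

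The 40 genes lay on 11 chromosomes, and a pair of them stood close together on chromosome 12. LOC4352487 and LOC4352488 have 1 gene between them in the RefSeq annotation, and 2 genes lie between LOC4352488 and PBZ1, one of the genes left out by name. They were among the brightest members, at 1771 ± 331 and 1583 ± 55.4 in T24P, against 258 ± 37.0 and 237 ± 25.8 in T24C (SD, n = 3 each). On chromosome 1, LOC4326000 and LOC4326047 have 11 genes between them.

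The limits of the choice cut through a continuum. Just inside the TN1 minimum were CDKE-1 (2.3018), LOC4350879 (2.3026) and OsAffx.29933.1.S1_at (2.3029), and just outside it were LOC4351076 (2.2982), Os.48053.1.A1_at (2.2689) and salT's other probe set (2.2648). Just inside the RH limit were HAK5, LOC4323896 (0.4775) and LOC4345700 (0.4733), and just outside it LOC4324903 (0.5032), Os.23183.1.S1_at (0.5071) and OsAffx.32308.1.S1_at (0.5134). In RH, 62 of the 64 differences lay within 0.5 of 0. The exceptions were OsAffx.19366.1.S1_at at -0.56 and Os.12430.1.S1_at, which read 20.8, 16.8 and 30.4 in R24P against 106, 80.2 and 93.9 in R24C, a difference of -2.08.

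The 3 infested TN1 arrays were not alike. Replicate 1 was the highest of the 3 T24P arrays in 57 of the 64 members, replicate 3 in 6 and replicate 2 in 1, while replicate 2 was the lowest in 46. The median difference of the members from T24C was 3.30 in replicate 1, 2.17 in replicate 2 and 2.59 in replicate 3. This order was shared beyond the members. Among the 2002 probe sets that were at least 2-fold higher in T24P with the arrays apart, replicate 1 was the highest in 1856, whereas among all probe sets it was the highest in 35.3%. The median SD of the members was 0.64 on the log2 scale in T24P and 0.34 in T6P, against 0.18 in both T24C and T6C. Over all probe sets it was 0.16 in T24P and 0.13 in T24C. The wide spread was not particular to the members. The 270 probe sets also higher in RH had 0.74 in T24P and 0.44 in T6P, and the 2002 had 0.45 and 0.22.

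The members differed in this spread. The highest T24P array exceeded the lowest by a median of 2.36-fold. The smallest ratios were those of LOC4352488 (1628, 1601 and 1521), at 1.07-fold, and HAK5, at 1.11-fold. The largest were those of LOC4337509 (629.8, 41.4 and 85.1), at 15.2-fold, and LOC4345287 (514, 36.9 and 97.6), at 13.9-fold. In 18 members the arrays spanned 2 or more on the log2 scale and in 22 under 1. The 3 members with replicate 1 as the lowest array were LOC4330830, CPS2 and GER6. Without replicate 1, 33 of the 64 members still met the TN1 minimum, among them 5 of the 11 named ones, GER6, CM-LOX2, CPS2, ABCG48 and HAK5, and the lowest difference was 1.42. In each single T24P array, 23 members were at least 2.3 above T24C and 63 at least 1 above it.

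**Figure D3:**
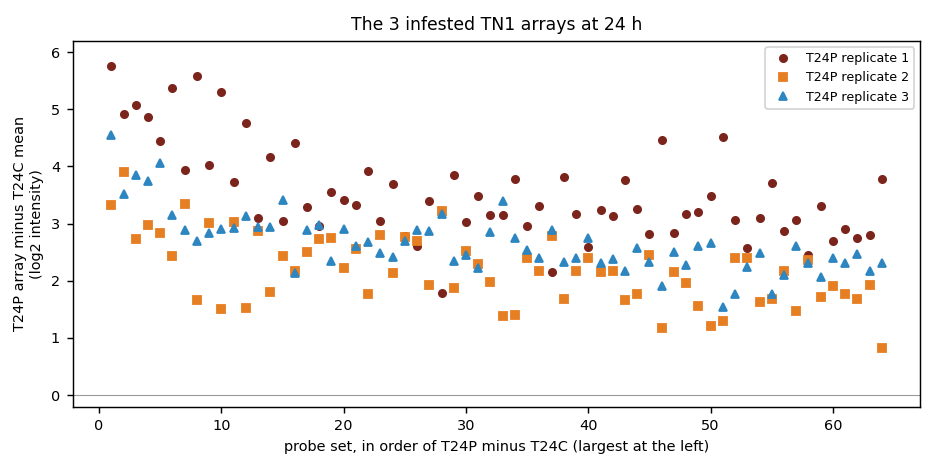
Log2 intensity of each of the 3 T24P arrays minus the mean of T24C for the 64 probe sets, ordered by the mean difference. Replicate 1 (circles) is the highest in 57 of the 64 and replicate 2 (squares) the lowest in 46.

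At 6 h few members were called in infested TN1, though a larger share than of all probe sets. The 6 h groups were not used by the choice and were tested with limma over all probe sets, with a call where the adjusted p was under 0.05 and the groups differed by at least 1 on the log2 scale. In T6P/T6C 6 of the 64 members were called higher, beside 0.309% of all probe sets, and none lower, beside 0.0192%. Called higher were also 39 of the 270 probe sets with the same TN1 difference and an RH difference of 0.5 or more. The median of the members was 0.38, beside -0.02 for all probe sets, and 57 of the 64 lay above 0. All 3 T6P arrays stood above all 3 T6C arrays in 25 members, beside 10.2% of all probe sets.

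LOC4330830 had the largest difference of the members in T6P/T6C. It read 59.7, 52.6 and 22.8 in T6P, against 7.07, 7.21 and 7.87 in T6C, a difference of 2.49 ± 0.26 (SE, limma adjusted p = 1.65e-06). Needle puncturing left it at 7.27, 5.72 and 7.99 in T6N, and RH stood at 7.83, 7.63 and 7.89 in R6P and 7.17, 6.93 and 8.59 in R6C. Only infested TN1 thus lay apart at 6 h, and at 24 h the same probe set read 26.1, 70.0 and 67.8 in T24P. The 2 other probe sets of the gene differed by 0.25 and 0.06 in T6P/T6C.

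The remaining calls were smaller. Os.39764.1.S1_at and its companion Os.39764.1.S1_x_at, probe sets with no gene that share a design sequence name, were 1.42 and 1.13 higher (limma adjusted p = 0.0139 and 0.0425). One of the 2 member probe sets of LOC4323896 was 1.26 higher (adjusted p = 0.0125) and the other had 0.79. OsAffx.5446.1.S1_s_at read 580.2, 511 and 734 in T6P, against 278, 273 and 261 in T6C (adjusted p = 0.000132), and OsAffx.29933.1.S1_at read 48.0, 43.7 and 55.6 in T6P, against 24.5, 23.4 and 23.5 in T6C (adjusted p = 0.000646). In both the groups were well apart. At the other end were OsAffx.3970.1.S1_at at -0.81, Os.50993.1.S1_at at -0.16 and CPS2 at -0.16, none of them called.

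The T6P arrays also differed among themselves. Replicate 2 was the lowest of the 3 in 43 of the 64 members. LOC4335067 read 251, 40.1 and 217 in T6P, against 73.1, 51.0 and 72.5 in T6C, so that replicate 2 lay below the untreated arrays and the other replicates well above them. Without T6P replicate 2, 11 members were called, and without T6P replicate 3 or T6C replicate 2, 3 members were called. The share of all probe sets called in these fits was not counted. The counts thus show only that the calls depend on single arrays.

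Needle puncturing at 6 h was tested in the same way. In T6N/T6C 5 were called higher, beside 0.385% of all probe sets, and 2 lower, beside 0.0332%. Some members were close in both treatments, and the treatments were not tested against each other. OsAffx.29933.1.S1_at, called in T6P/T6C at 1.04, had 0.96 in T6N/T6C (limma adjusted p = 0.000932), just under the minimum fold change. ABCG37 had 0.84 in T6P/T6C and 0.98 in T6N/T6C (adjusted p = 0.0134 and 0.003). LOC9271072 read 104, 71.4 and 68.1 in T6N, against 16.1, 18.9 and 16.7 in T6C, a difference of 2.21 (limma adjusted p = 3.93e-06). LOC4352487 was 1.86 higher, LOC4332423 1.48, LOC4326000 1.43 and LOC4349585 1.03 (adjusted p between 0.00214 and 0.0221), while LOC4351197 with 1.31 missed the threshold (adjusted p = 0.0564). These 5 thus changed with the wound at 6 h, and in infested TN1 at 6 h their differences were between -0.06 and 0.58.

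EIL1 and OsAffx.3970.1.S1_at went the other way, and LOC4336108, with -0.58, was not called. EIL1 read 259, 258 and 226 in T6N, against 499, 637 and 473 in T6C, a difference of -1.11 (limma adjusted p = 0.00119). OsAffx.3970.1.S1_at read 125, 115 and 122.8 in T6N, against 522, 498 and 395 in T6C, a difference of -1.95 (adjusted p = 0.000241). Both were thus lower after puncturing at 6 h and higher in infested TN1 at 24 h. Their untreated level also differed between the times. EIL1 averaged 572 in T24P, against 107 in T24C and 536 in T6C, and OsAffx.3970.1.S1_at averaged 242 in T24P, against 32.9 in T24C and 472 in T6C. With LOC4335374 and LOC4326047 they are the 4 members in which T24P was not the highest group mean. Replicate 1 of T6N was the highest of its group in 51 of the 64 members.

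RH at 6 h gave few calls. In R6P/R6C 1 of the 64 members was called higher, beside 0.316% of all probe sets, and 2 lower, beside 0.0997%. Of the 270 probe sets that were also higher in RH at 24 h, 42 were called higher. OsAffx.5446.1.S1_s_at was the member called higher, at 193, 229 and 169 in R6P against 56.6, 59.7 and 82.5 in R6C (1.58, limma adjusted p = 1.77e-07), so that it rose in both varieties at 6 h. OsAffx.3970.1.S1_at fell by 1.46 (adjusted p = 0.00609) and LOC4335374 by 1.47 (adjusted p = 0.00885), and Os.12430.1.S1_at with -1.11 was not called. The next highest members, LOC9271072, LOC4352488, HAK5 and LOC4349848, had differences between 0.79 and 0.46 and were not called. In R6N/R6C the 2 members called, both higher, beside 0.156% of all probe sets, were LOC9271072 at 2.63 and LOC4332423 at 1.65, which were also called after puncturing in TN1, and none was called lower, beside 0.021%. LOC9271072 read 137, 88.5 and 46.6 in R6N, against 15.7, 13.7 and 11.1 in R6C. LOC4332423 read 83.0, 40.6 and 18.2 in R6N, against 14.9, 12.4 and 10.9 in R6C, so that replicate 1 stood highest. Without that array its difference was 1.11 and no longer called (adjusted p = 0.06), nor was it called when only the groups compared were fitted (adjusted p = 0.261).

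The difference between the varieties in the 6 h response to BPH was tested as an interaction, R6P/R6C minus T6P/T6C, with the adjusted p alone. It was called for 3 members, all with the lower value in RH, beside 0.0472% of all probe sets, and 0 with the higher value in RH, beside 0.0629%. These were LOC4330830 (-2.45, limma adjusted p = 0.00127), LOC4335374 (-2.49, adjusted p = 0.0122) and OsAffx.29933.1.S1_at (-1.15, adjusted p = 0.0379). LOC4335374 read 306, 249.6 and 243 in R6P, against 714, 756 and 735 in R6C, and 322, 93.7 and 125 in T6P, against 121, 60.4 and 61.7 in T6C. It was thus lower in every infested RH array, while the infested and untreated TN1 arrays overlapped.

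**Figure D4:**
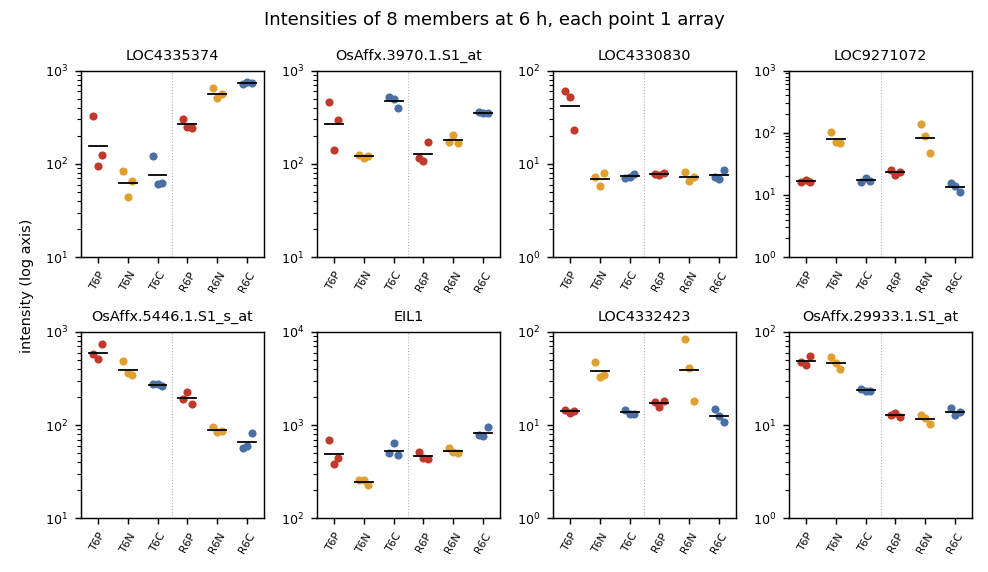
Intensity on a log axis of 8 members in the 6 h groups, TN1 left and RH right of the dotted line, with 1 point per array and a bar at the geometric mean. LOC4330830 is high in T6P alone, LOC9271072 and LOC4332423 are high after puncturing in both varieties, and LOC4335374 is higher in all RH groups than in the untreated TN1 arrays.

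The 24 h needle groups share their untreated arrays with the choice, so their values are given with no test. The largest differences in T24N/T24C were those of LOC4326047 (1.23), LOC4335374 (1.07), LOC4351197 (0.86), LOC4323896 (0.75) and LOC4350879 (0.71), and the smallest were those of Os.19105.1.S1_at (-0.38), Os.11164.1.S1_at (-0.37) and LOC4336108 (-0.27). LOC4326047 read 26.3, 36.6 and 53.2 in T24N and 102, 59.1 and 83.1 in T24P, against 19.6, 20.3 and 10.0 in T24C, so that the punctured arrays stood between the other groups. LOC9271072, which punctured plants had raised at 6 h, was at 33.5, 15.1 and 23.01 in T24N and 14.7, 16.5 and 12.6 in T24C. T24P minus T24N was 1.10 or more in all members, with a median of 2.56. The choice took probe sets that were high in T24P, so this difference is largely set by it and was not tested.

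The varieties were compared without BPH in groups the choice did not use, R6C/T6C and R24N/T24N. A probe set that reads little in RH under any treatment meets the RH limit. The choice may therefore favour members that are lower in RH. Less RNA in RH and probes that match RH poorly cannot be told apart here. In R6C/T6C 1 member was called higher in RH, beside 1.45% of all probe sets, and 6 lower, beside 1.47%. In R24N/T24N 3 were called higher in RH, beside 1.3%, and 11 lower, beside 1.5%. All 7 members of the first comparison were called in the second as well, and 50 of the 64 were called in neither.

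LOC4335374 was the member higher in RH in both. It read 714, 756 and 735 in R6C, against 121, 60.4 and 61.7 in T6C (3.26, limma adjusted p = 3.11e-09), and was 3.15 higher in R24N/T24N. The next highest in R6C/T6C, salT, LOC4352488, LOC4323896 and LOC4344624, had 0.75 to 0.64 and were not called. LOC4335374 was also the only member whose mean was higher in R24P than in T24P, at 386, 363 and 491 in R24P and 269, 176 and 345 in T24P. The untreated RH arrays at 6 h thus stood above every infested TN1 array. EIL1 and LOC4325624 were called higher in RH in R24N/T24N alone, by 1.35 and 1.03 (limma adjusted p = 5.82e-06 and 0.0425). LOC4325624 read 69.83, 28.4 and 17.55 in R24N, against 12.11, 15.47 and 21.65 in T24N. Its groups thus overlapped, and R24N replicate 1 stood far above the rest.

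Lower in RH in both comparisons were LOC4350879, OsAffx.19366.1.S1_at, LOC4326047, LOC4335067, OsAffx.5446.1.S1_s_at and Os.53117.1.S1_x_at. LOC4350879 read 12.2, 10.0 and 11.6 in R6C, against 143, 164 and 150.0 in T6C, a difference of -3.76 (limma adjusted p = 8.29e-13), and -2.18 in R24N/T24N. OsAffx.19366.1.S1_at read 10.2, 10.2 and 7.57 in R6C, against 74.8, 70.4 and 67.5 in T6C, and LOC4326047 read 6.30, 8.95 and 5.48 in R6C, against 47.0, 30.8 and 53.7 in T6C. In these 3 probe sets the RH arrays lay under the array medians, also under BPH infestation at 24 h, as with 20.8, 7.39 and 8.48 for LOC4350879 in R24P. In R24N/T24N 5 more were called lower in RH, Os.12430.1.S1_at, Os.19105.1.S1_at, Os.10623.2.S1_a_at, OsAffx.29933.1.S1_at and LOC4351197, with differences between -2.73 and -1.36.

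**Figure D5:**
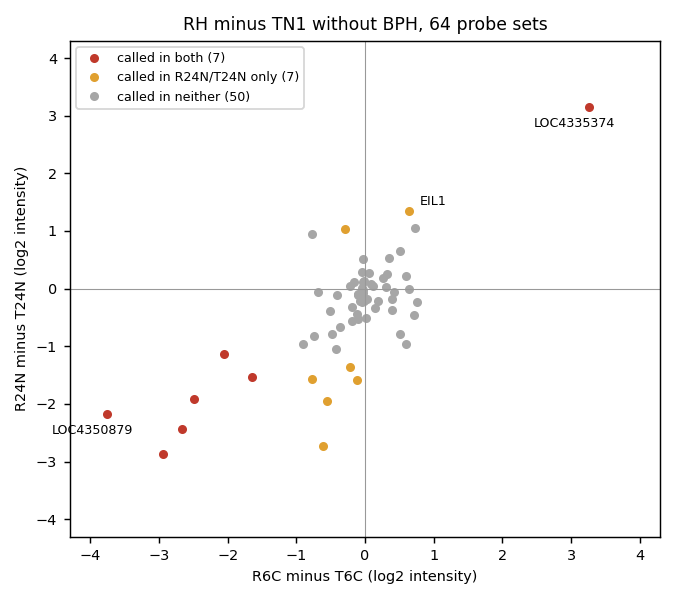
RH minus TN1 in log2 intensity for the 64 probe sets in untreated plants at 6 h (horizontal axis) and punctured plants at 24 h (vertical axis). The 7 probe sets called in both comparisons lie away from the centre in the same direction in both, LOC4335374 higher in RH and 6 lower, and 50 are called in neither.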

How the data were processed

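The deposited table gave 1 intensity per probe set and array, 57194 by 36, linear and already background-corrected and normalized by the authors. RMA and affy are named in the submitters' processing notes, and their versions are not given in the sources used here. A summary over probes draws low signals together, which bears on folds against dim groups.

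Intensities were taken to log2 without further scaling. The members and gene lists were chosen with earlier results of these data known. limma 3.58.1 in R 4.3.3 was fitted with 1 mean per group over all 36 arrays, with Benjamini-Hochberg adjustment over 57194 probe sets, and it was tested on simulated data. Each probe set thus had 1 variance for all 12 groups. The 24 residual degrees of freedom come from pots, which the labels call biological replicates, and 3 arrays per group limit the precision.

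Gene names come from the array's platform annotation. Of the 64 probe sets, 12 end in _s_at, _x_at or _a_at, the maker's mark for probes shared by several transcripts. All 40 genes matched the RefSeq annotation of assembly ASM3414082v1, which was used only for gene order. Gene lists were matched on symbols and synonyms, by probe set, and the list of root markers matched none. Sequences are not analysed here.

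The text names every member with a gene name, the 10 members with the largest T24P minus T24C, the 5 largest and 3 smallest in T6P/T6C, T6N/T6C, R6P/R6C, R6C/T6C and T24N/T24C, members on a gene list, and the 3 probe sets on each side of a limit. Members named for a call or for their spread, neighbours and relatives were chosen after their values were seen.

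Alternatives were a one-way ANOVA, the test the methods name, fits of only the groups compared, a replicate block, quantile normalization, median centring, array weights, a trended and robust variance, dropping dim probe sets (mean log2 under 6), and leaving out each array, and for the choice other limits and a floor at a log2 of 5.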

Additional observations from a re-analysis of the deposited data

Results flagged for a closer look

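In 3 members the 6 h response to BPH differed between the varieties by the interaction R6P/R6C minus T6P/T6C in limma. For LOC4330830 it was -2.45 (adjusted p = 0.00127), with the 3 T6P arrays above and the R6P arrays level with their untreated ones, and over the alternatives it lay between -2.88 and -2.19, called in each that tested it except the adjusted ANOVA (adjusted p = 0.335). For LOC4335374 it was -2.49 (adjusted p = 0.0122), from lower values in all 3 infested RH arrays and a TN1 difference of 1.02 that was not called. It was no longer called when only the groups compared were fitted (adjusted p = 0.119) or without R6P replicate 3, T6C replicate 2 or T6C replicate 3 (adjusted p between 0.0538 and 0.0617). For OsAffx.29933.1.S1_at it was -1.15 (adjusted p = 0.0379), and leaving out any of the 12 arrays except T6P replicate 2 ended the call (adjusted p up to 0.15).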

How the results depend on the processing

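The choice of members depended on its limits and on single arrays. With a TN1 minimum of 2.0 it took 100 probe sets, with 3.0 it took 12, and with an RH limit of 1.0 it took 148. Leaving out 1 array gave 34 (without T24P replicate 1, 33 of them shared with the 64) to 101 (without T24P replicate 2). Only 13 of the 64 had a mean log2 of 6 or more over the 36 arrays, and since the rest were then not tested, calls fell to 1 in T6P/T6C, 4 in T6N/T6C, 0 in R6N/R6C, 1 in the interaction, 3 in R6C/T6C and 5 in R24N/T24N. The adjusted one-way ANOVA on the groups compared called 0 members in T6P/T6C, T6N/T6C, R6P/R6C, R6N/R6C and the interaction and 8 in R24N/T24N. Unadjusted at p under 0.05 it called 6, 7, 3, 1 and 20 in the same order and 14 in R24N/T24N, with a minimum fold change of 2 except in the interaction, beside 0.334%, 0.441%, 0.428%, 0.21%, 10.8% and 2.81% of all probe sets. A fit of only the groups compared left LOC9271072 alone in R6N/R6C, 1 of 2. For the fits that left out an array, the share of all probe sets called was not counted. Leaving out 1 array gave 3 to 11 members in T6P/T6C, 5 to 10 in T6N/T6C, 2 to 3 in R6P/R6C, 1 to 2 in R6N/R6C (1 without R6N replicate 1), 1 to 3 in the interaction, 7 to 8 in R6C/T6C and 14 to 15 in R24N/T24N. Over all probe sets the replicate numbers showed no clear pairing of pots, since of 24 correlations between same-numbered arrays 1 was over 0.1. Treated groups of 1 variety were not compared in this way, so an effect shared by their same-numbered pots was not tested. Replicate 1 was the highest in 57 of the 64 members in T24P, 51 in T6N and 38 in T6P, but in 21 in T24N and 15 in T24C. With the replicate block the counts were 6, 7, 3, 2, 3, 7 and 14, the same members as without it. No direction reversed under any alternative run. Beyond 3 arrays per group, low signal limits the comparisons, since dim probe sets were not shown to be above background.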
